A study of Mus musculus with 8 samples.

Results

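The genes described here encode the subunits of the nuclear RNA polymerases I, II and III. They were taken as the protein-coding mouse genes whose symbol starts with Polr1, Polr2 or Polr3 followed by a letter, which gave 28 genes among the 49315 genes in the files (5, 13 and 10 by that order). The pseudogene Polr2k-ps fits the symbol but not the gene type and was left out, and its counts summed to 13 over all libraries. The cells were mouse CD45.1 CD8 T cells with the OT-I transgenic receptor, which recognises a peptide of ovalbumin. They were isolated as naive cells from spleen and inguinal lymph nodes, kept in interleukin-7 (2.5 ng/ml) and interleukin-15 (50 ng/ml), and edited with CRISPR-Cas9 by nucleofection. The 4 Control KO libraries come from cells given a guide against LacZ, a bacterial gene absent from mouse cells, and the 4 Carm1 KO libraries from cells given a guide against Carm1. RNA was taken 7 days after editing. The series text places both arms in co-culture with B16F10-Ova melanoma cells, which the sample protocols of these libraries do not mention. The labels give no mouse ages and call the 4 libraries of an arm technical replicates, so p-values here measure only the spread between such libraries. The edit and anything else that set the cultures apart cannot be told apart.

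RNA polymerase I transcribes the large ribosomal RNA precursor, RNA polymerase II transcribes messenger RNA, and RNA polymerase III transcribes transfer RNA, the small ribosomal RNA and other short RNAs. Each enzyme has a pair of large catalytic subunits of its own, a set of small subunits common to all of the enzymes, and peripheral subunits for initiation, elongation and termination. Pol I and Pol III also share an assembly dimer. T cells raise output of all of these enzymes when they are activated to grow and divide. Carm1 encodes an arginine methyltransferase and transcriptional coactivator, and the tail of the largest Pol II subunit is one of its known substrates.

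Library totals ran from 37556330 to 41439998 counts, and each of the 28 genes had between 352 and 9419 counts in a library. Levels are CPM, the count relative to the library total, on TMM-scaled library sizes, given as the mean of 4 libraries ± SD. Each log2 fold change is Carm1 KO minus Control KO, with the standard error after the ± sign, from the edgeR quasi-likelihood fit over 14970 genes. Carm1 itself went from 95.9 ± 1.04 to 32.8 ± 0.493 CPM, a log2 fold change of -1.55 ± 0.027 (adjusted p = 1.6e-37). The labels state that Carm1 protein was lost, by western blot. The CD8 T cell identity of both groups was measured with 8 defining genes, whose summed level was 4146 to 4238 CPM in the Control KO and 6065 to 6259 CPM in the Carm1 KO libraries, with 7 of 8 higher and 1 lower. Markers of other cells differed too. All 8 myeloid markers were lower, with sums of 119 to 123.2 and 5.94 to 7.22 CPM. The 7 B cell markers summed to 23.5 to 24.6 and 18.9 to 20.7 CPM, and of the 3 that were tested 2 rose and 1 fell. Of 7 melanoma markers, Tyr, Tyrp1, Dct and Sox10 had no counts in any library, the 2 tested, Pmel and Mitf, rose, and the sum was 4.05 to 4.31 and 13.8 to 15.1 CPM. The part of these cell types in the results below was not tested. In bulk RNA, fewer cells of a type and less RNA per cell cannot be told apart.

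Transcripts of the polymerase subunits were mostly lower in the Carm1 KO libraries. All 28 genes passed the filter on low counts. The test was passed by 27, where 87.7% of all tested genes passed. Of the 28, 23 fell (82.1%), 4 rose (Polr1d, Polr3c, Polr3gl and Polr3k) and Polr2i did not pass. Over all tested genes 43.2% were called lower and 44.5% higher. At least 2-fold falls were found for 12 of the 28 genes, against 15.2% of all tested genes, and an at least 2-fold rise for 1 of the 28, against 20.5%. The median log2 fold change was -0.86 over the 28 genes and 0.02 over all tested genes. The groups did not overlap for 27 of the 28 genes, where 83.4% of all tested genes did not overlap. Other scalings shifted every gene: upper-quartile factors moved the log2 fold change of the median gene by 0.22 and library totals alone by 0.16, so a change smaller than these has no settled direction. With upper-quartile factors 22 of the 28 genes were called lower and 5 higher. With TMM factors 50.8% of called genes were higher, with upper-quartile factors 61.0% and with library totals 58.4%.

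**Figure D1:**
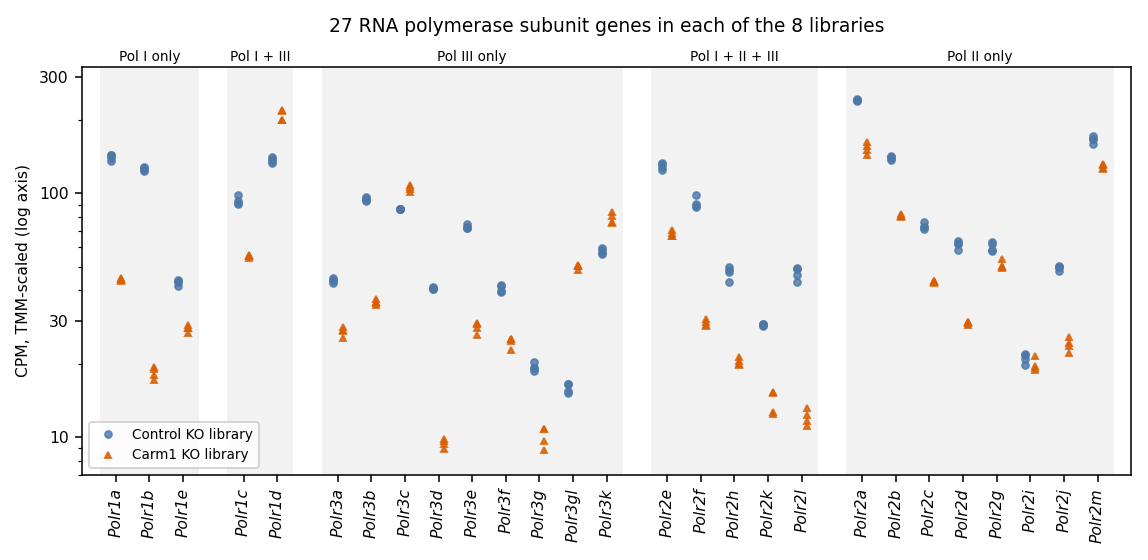
CPM (TMM-scaled, log axis) of 27 of the 28 subunit genes in each library, grouped by the polymerases that contain the subunit, with circles for the Control KO and triangles for the Carm1 KO libraries. The triangles lie below the circles for 22 genes and above them for Polr1d, Polr3c, Polr3gl and Polr3k, while the groups overlap for Polr2i.

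Of the 28, the 3 genes for subunits found only in Pol I all fell, where 43.2% of all tested genes fell. Their median log2 fold change was -1.66. Polr1b (chr2:129100995-129126594, plus strand, mm10) encodes the second-largest, catalytic subunit, and had the largest fall of the 28 genes. It was at 127, 125, 124 and 128 CPM in the 4 Control KO libraries and at 17.96, 17.1, 19.3 and 19.1 CPM in the 4 Carm1 KO libraries. Every Carm1 KO library was far below every Control KO library, and the fall was 6.86-fold (log2 fold change -2.78 ± 0.031, adjusted p = 2.3e-44). Polr1a (chr6:71909053-71984935, plus strand), which encodes the largest subunit and forms the active site together with Polr1b, was at 139.6, 144, 135 and 144 CPM in the 4 Control KO libraries and at 43.8, 45.05, 44.2 and 44.7 CPM in the 4 Carm1 KO libraries. It fell 3.16-fold, so the pair did not fall equally. The ratio of Polr1a to Polr1b, each per kilobase of exon, was 0.546 ± 0.0118 in the Control KO libraries and 1.19 ± 0.0731 in the Carm1 KO libraries, with no overlap between the groups. Polr1e, which encodes a peripheral subunit that aids initiation and elongation, fell less, from 43.1 ± 0.980 to 27.8 ± 0.922 CPM (1.55-fold).

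Further Pol I subunits carry other symbols in the annotation and lie outside the 28. Cd3eap, the dimer partner of Polr1e, fell 5.08-fold, from 68.5 ± 1.80 to 13.5 ± 1.49 CPM. Twistnb, a subunit of the stalk that contacts initiation factors, fell 2.0-fold, from 60.2 ± 1.35 to 30.1 ± 1.28 CPM. Znrd1, the small subunit linked to RNA cleavage, was at 33.4 ± 1.66 and 34.7 ± 1.64 CPM (adjusted p = 0.17), and the groups overlapped. The dimer partners Polr1e and Cd3eap thus differed in the size of their fall, and their ratio per kilobase was 0.403 ± 0.0183 in the Control KO libraries and 1.33 ± 0.138 in the Carm1 KO libraries.

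Polr1c and Polr1d encode the dimer on which both Pol I and Pol III are assembled, and variants of both genes are known in Treacher Collins syndrome. The partners moved in opposite directions. Polr1c (chr17:46243920-46248054, minus strand) was at 90.5, 98.4, 91.4 and 93.2 CPM in the 4 Control KO libraries and at 56.0, 54.2, 55.1 and 55.1 CPM in the 4 Carm1 KO libraries, a 1.69-fold fall (log2 fold change -0.76 ± 0.027, adjusted p = 1.3e-26). Polr1d (chr5:147077050-147111597, plus strand) was at 133, 139, 141 and 136 CPM in the 4 Control KO libraries and at 221, 201, 199.96 and 219 CPM in the 4 Carm1 KO libraries. All Carm1 KO libraries were above all Control KO libraries for Polr1d, a 1.53-fold rise (log2 fold change 0.61 ± 0.03, adjusted p = 1.4e-16). The ratio of Polr1d to Polr1c per kilobase was 1.10 ± 0.0403 in the Control KO libraries and 2.85 ± 0.128 in the Carm1 KO libraries.

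**Figure D2:**
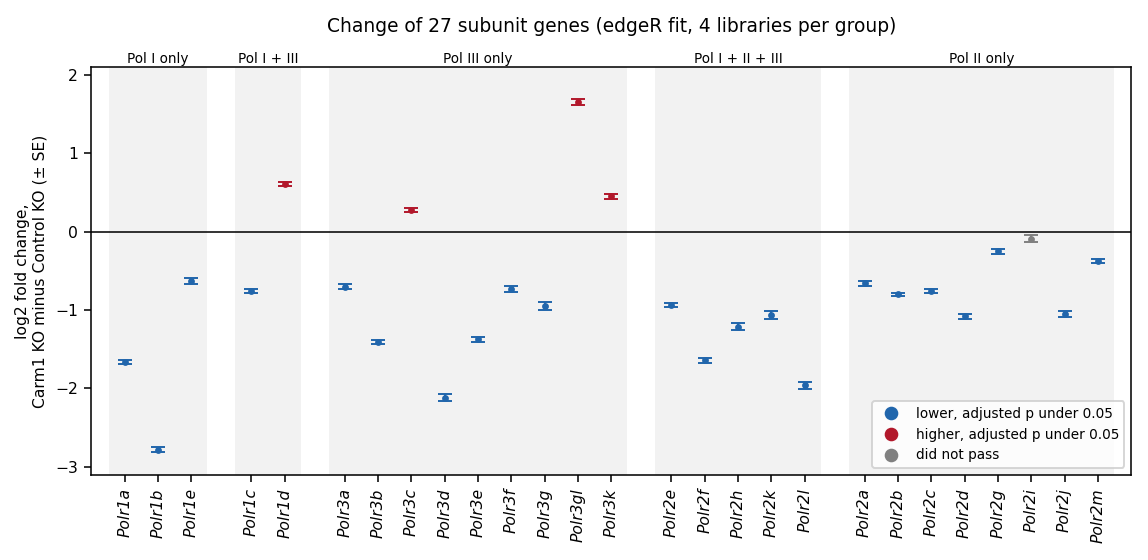
Log2 fold change (Carm1 KO minus Control KO) of 27 of the 28 subunit genes from the edgeR fit, with bars for the standard error and colours for the call at an adjusted p under 0.05. Values run from -2.78 for Polr1b to 1.65 for Polr3gl, and each of the rising genes is in the Pol III or the Pol I and III block.

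The 10 genes for subunits found only in Pol III split, with 7 falling and 3 rising and a median log2 fold change of -0.84. Among the catalytic pair, Polr3b, the second-largest subunit, fell 2.66-fold, from 95.1 ± 1.33 to 35.8 ± 0.874 CPM, and Polr3a, the largest subunit, fell 1.62-fold, from 43.9 ± 0.809 to 27.1 ± 1.13 CPM. As in Pol I, and as in Pol II below, the gene of the second-largest subunit showed the larger fall of the pair. The ratio of Polr3a to Polr3b per kilobase was 0.519 ± 0.0109 in the Control KO libraries and 0.853 ± 0.0376 in the Carm1 KO libraries. Polr3d and Polr3e encode a dimer that acts in termination and reinitiation. Polr3d (chr14:70438748-70443471, minus strand) was at 40.4, 41.4, 40.98 and 40.5 CPM in the 4 Control KO libraries and at 9.38, 8.92, 9.77 and 9.60 CPM in the 4 Carm1 KO libraries. This was the largest fall among the Pol III genes, 4.33-fold (log2 fold change -2.12 ± 0.043, adjusted p = 2.5e-35). Its partner Polr3e fell 2.59-fold, from 73.0 ± 1.21 to 28.2 ± 1.5 CPM, and the ratio of Polr3e to Polr3d per kilobase was 0.768 ± 0.0180 in the Control KO libraries and 1.29 ± 0.0825 in the Carm1 KO libraries.

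Polr3c, Polr3f and either Polr3g or Polr3gl form the trimer that binds the Pol III initiation factor TFIIIB. Polr3g and Polr3gl are paralogues that take the same place in the enzyme. Polr3g is known from stem, tumour and dividing cells, while Polr3gl is the form of most adult tissues. In these libraries the paralogues moved apart. Polr3gl (chr3:96577872-96594181, minus strand) was at 16.4, 16.4, 15.4 and 15.1 CPM in the 4 Control KO libraries and at 50.7, 50.2, 48.6 and 50.3 CPM in the 4 Carm1 KO libraries. The groups were far apart, and the 3.15-fold rise (log2 fold change 1.65 ± 0.038, adjusted p = 1.7e-33) was the largest of the 28 genes. Polr3g (chr13:81673843-81711013, minus strand) was at 19.1, 20.3, 19.2 and 18.6 CPM in the 4 Control KO libraries and at 9.59, 10.8, 8.80 and 10.7 CPM in the 4 Carm1 KO libraries, a 1.93-fold fall (log2 fold change -0.95 ± 0.055, adjusted p = 3.6e-19). Per kilobase of exon, the ratio of Polr3gl to Polr3g was 2.03 ± 0.0602 in the Control KO libraries and 12.4 ± 1.07 in the Carm1 KO libraries. The order of the paralogues in the Control KO libraries rests on the length scaling, since in plain CPM Polr3gl was at 15.9 and Polr3g at 19.3. The other trimer members also moved apart. Polr3c (chr3:96711490-96727628, minus strand) was at 86.7, 86.6, 86.5 and 86.1 CPM in the 4 Control KO libraries and at 108, 104, 102 and 106 CPM in the 4 Carm1 KO libraries, a 1.21-fold rise that was small but outside the spread of the libraries (log2 fold change 0.28 ± 0.025). Polr3f fell 1.66-fold, from 40.8 ± 1.31 to 24.5 ± 1.21 CPM, and the ratio of Polr3c to Polr3f per kilobase was 4.83 ± 0.145 in the Control KO libraries and 9.78 ± 0.735 in the Carm1 KO libraries.

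The promoters of Polr3gl, its paralogue Polr3g and the trimer gene Polr3c, which also rose, are shown with a pair of the searched motifs marked. They also differ in motifs not marked, since the CCAAT box is in that of Polr3gl only and the GC-box in those of Polr3c and Polr3g only. Each is the 250 bases before the RefSeq transcription start on GRCm38.p6, the assembly of mm10, and all are read on the minus strand: chr3:96594182-96594431 for Polr3gl, chr3:96727440-96727689 for Polr3c and chr13:81711014-81711263 for Polr3g. Capitals mark the E-box CACGTG, bound by MYC and related factors, in the promoters of Polr3gl and Polr3c, and the ETS-type motif CCGGAAG, here as its reverse complement, in that of Polr3g.
Polr3gl: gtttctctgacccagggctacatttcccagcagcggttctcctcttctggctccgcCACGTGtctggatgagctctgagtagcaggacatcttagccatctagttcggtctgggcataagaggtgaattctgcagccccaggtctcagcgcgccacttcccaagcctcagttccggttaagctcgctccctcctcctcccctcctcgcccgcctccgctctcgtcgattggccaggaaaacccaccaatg
Polr3c: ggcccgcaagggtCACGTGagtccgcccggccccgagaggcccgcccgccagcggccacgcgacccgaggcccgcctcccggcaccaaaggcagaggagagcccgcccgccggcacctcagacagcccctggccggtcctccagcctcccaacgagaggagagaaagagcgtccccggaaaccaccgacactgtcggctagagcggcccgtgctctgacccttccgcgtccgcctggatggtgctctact
Polr3g: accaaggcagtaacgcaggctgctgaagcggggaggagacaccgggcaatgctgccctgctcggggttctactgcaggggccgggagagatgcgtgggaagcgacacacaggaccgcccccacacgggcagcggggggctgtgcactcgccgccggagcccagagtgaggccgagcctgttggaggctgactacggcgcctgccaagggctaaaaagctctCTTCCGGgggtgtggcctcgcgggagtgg
RefSeq gave 24 such promoter windows for 22 of the 28 genes. Both strands were searched, each motif on its own, so matches of different motifs may overlap. The RefSeq start of Polr3c lies inside the gene as Ensembl draws it. The E-box was found in 2 of the 24 windows (8.33%), those of Polr3gl and Polr3c, which is near the 6.02% of the 32851 windows of all genes and the 6.63% of those of protein-coding genes. Polr3k, which also rose, has a window without it. It starts 194 bases before the start of Polr3gl and 237 bases before that of Polr3c. The ETS-type motif was found in 5 windows (20.8%), those of Polr1c, Polr2f, Polr2j, Polr3b and Polr3g, against 6.91% of all windows and 8.98% of those of protein-coding genes. The GC-box GGGCGG was in 15 of the 24 windows (62.5%), against 42.6% of windows of protein-coding genes and 32.7% of all windows. The TATA box TATAAA was in 2, those of Polr2a and Polr2c, against 11.6% of windows of protein-coding genes. The CCAAT box was in 7 of the 24 windows, against 35.4% of windows of protein-coding genes, and the letters AAGATGG of the YY1 motif in 0, against 4.13%. These matches describe letters in the windows, and binding was not measured.

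Polr3k, the small subunit needed for RNA cleavage at termination, was at 59.9, 56.8, 58.4 and 56.2 CPM in the 4 Control KO libraries and at 83.6, 76.1, 75.9 and 81.0 CPM in the 4 Carm1 KO libraries. It rose 1.37-fold without overlap of the groups (log2 fold change 0.45 ± 0.03, adjusted p = 2.3e-16). Crcp, a Pol III stalk subunit under another symbol, was at 33.1 ± 0.518 and 33.6 ± 0.705 CPM, a log2 fold change of 0.02 ± 0.034 (adjusted p = 0.53).

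The 5 genes for small subunits shared by Pol I, II and III all fell, where 43.2% of all tested genes fell. Their median log2 fold change was -1.21. Polr2l (chr7:141471860-141475132, minus strand), which encodes a small zinc-binding subunit, was at 46.2, 49.3, 48.8 and 43.4 CPM in the 4 Control KO libraries and at 13.1, 11.6, 11.1 and 12.3 CPM in the 4 Carm1 KO libraries. The 3.90-fold fall (log2 fold change -1.96 ± 0.048, adjusted p = 5.4e-29) was the largest of the shared subunits. Polr2f (chr15:79141351-79151774, plus strand), which helps to hold the largest subunit in place, was at 88.9, 98.6, 88.0 and 90.2 CPM in the 4 Control KO libraries and at 30.5, 28.4, 28.8 and 29.6 CPM in the 4 Carm1 KO libraries, a 3.12-fold fall. Polr2h fell 2.32-fold, Polr2k, another zinc-binding subunit, 2.09-fold and Polr2e 1.90-fold. Polr2e went from 129.7 ± 3.94 to 68.3 ± 1.67 CPM. The groups did not overlap for any of the 5, as for 83.4% of all tested genes.

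Of the 8 genes for subunits of Pol II alone 7 fell (87.5%, against 43.2% of all tested genes) and none rose (against 44.5%). Their median log2 fold change was -0.71. Polr2a (chr11:69733997-69758637, minus strand), the largest subunit and the carrier of the C-terminal repeat domain, was at 239, 242, 243 and 245 CPM in the 4 Control KO libraries and at 143, 157, 163 and 151 CPM in the 4 Carm1 KO libraries. It fell 1.58-fold (log2 fold change -0.66 ± 0.028, adjusted p = 1.5e-18), and Polr2b, the other catalytic subunit, fell 1.74-fold, from 141 ± 2.28 to 80.9 ± 0.941 CPM. The ratio of Polr2a to Polr2b per kilobase was 1.14 ± 0.0301 in the Control KO libraries and 1.25 ± 0.0649 in the Carm1 KO libraries, and whether this differs from the shift of the Pol I and Pol III pairs was not tested. Polr2c and Polr2j, the assembly dimer of Pol II, fell 1.69-fold and 2.07-fold, and their ratio per kilobase was 0.312 ± 0.00937 in the Control KO libraries and 0.383 ± 0.0200 in the Carm1 KO libraries. Polr2d and Polr2g form the Pol II stalk. Polr2d was at 58.8, 62.8, 62.3 and 63.6 CPM in the 4 Control KO libraries and at 29.5, 29.3, 29.6 and 28.7 CPM in the 4 Carm1 KO libraries, a 2.11-fold fall. Polr2g was at 57.9, 62.1, 58.8 and 63.1 CPM in the 4 Control KO libraries and at 53.9, 50.6, 49.5 and 49.7 CPM in the 4 Carm1 KO libraries, a 1.19-fold fall that is about the size of the scaling shift: with upper-quartile factors its log2 fold change was -0.03 (adjusted p = 0.34, in a range of 1.0e-19 to 0.34 over all fits). The ratio of Polr2g to Polr2d was 1.08 ± 0.0247 in the Control KO libraries and 1.92 ± 0.0704 in the Carm1 KO libraries per kilobase.

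Polr2m and Polr2i were the other Pol II genes with small differences. Polr2m, which encodes a protein that binds Pol II and competes with an initiation factor, fell 1.29-fold, from 167 ± 5.29 to 129 ± 3.06 CPM. Polr2i, the subunit linked to transcription fidelity, was at 19.7, 21.9, 20.8 and 21.8 CPM in the 4 Control KO libraries and at 21.4, 18.8, 19.2 and 19.6 CPM in the 4 Carm1 KO libraries. The groups overlapped and the log2 fold change was -0.09 ± 0.047 (adjusted p = 0.065). It was called lower with RLE factors (-0.11, adjusted p = 0.032) and higher with upper-quartile factors (0.12, adjusted p = 0.013). It was also called lower without Control KO replicate 1 (-0.13, adjusted p = 0.012) and without Carm1 KO replicate 1 (-0.14, adjusted p = 0.0066). Its adjusted p had a range of 0.0066 to 0.97 over all fits. Of its exon bases, 26.8% are shared with Tbcb on the other strand, at 53.1 ± 1.71 and 39.5 ± 1.88 CPM. Likewise 15.9% of the exon bases of Polr2j are shared with Lrwd1, at 80.4 ± 1.32 and 104 ± 3.06 CPM, and 18.1% of those of Polr2c with Dok4, at 0.913 ± 0.312 and 4.70 ± 0.464 CPM. The library kit does not mark strand, so counts of these genes are uncertain where exon bases are shared.

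Levels were compared between genes mainly per kilobase of annotated exon, and without length scaling only where stated. In the Control KO libraries Polr2f was the highest of the 28, at 168 CPM per kb, and Polr3g the lowest, at 4.90. Among the 28, the Pol I-only genes lay between 11.1 and 21.7 CPM per kb. The Pol III-only genes of the 28 lay between 4.90 and 25.5, and the Pol II-only genes between 14.0 and 69.7 CPM per kb. In the Carm1 KO libraries Polr1d was the highest, at 69.0 CPM per kb, and Polr3g was again the lowest, at 2.54. Polr1b, the highest of the Pol I-only genes among the 28 in the Control KO libraries, was the lowest of these in the Carm1 KO libraries, at 3.16 CPM per kb. Outside the 28, Znrd1, Cd3eap and Twistnb were higher than Polr1b in the Control KO libraries, at 40.8, 27.5 and 25.9 CPM per kb. Exon length here joins all annotated transcripts, so a gene with long, rarely used exons is understated.

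**Figure D3:**
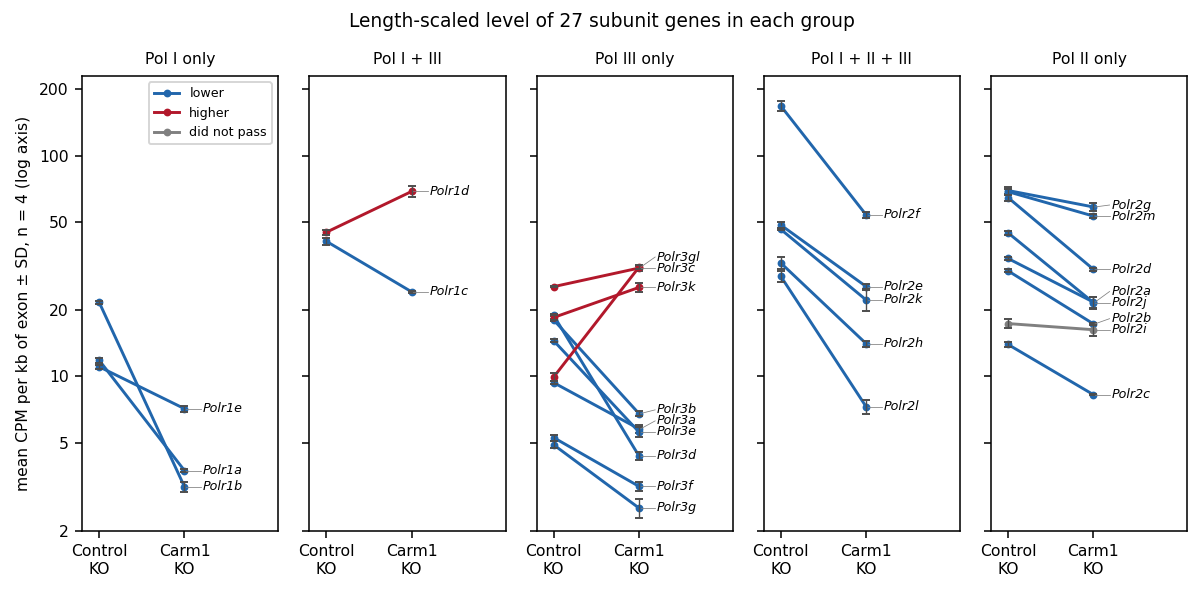
Mean CPM per kilobase of exon (log axis, bars SD over 4 libraries) of 27 of the 28 subunit genes in both groups, with 1 panel per set of polymerases and colours for the call. Lines for most genes go down, those of Polr1d, Polr3c, Polr3gl and Polr3k go up, and Polr1b crosses below Polr1a and Polr1e.

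**Figure D4:**
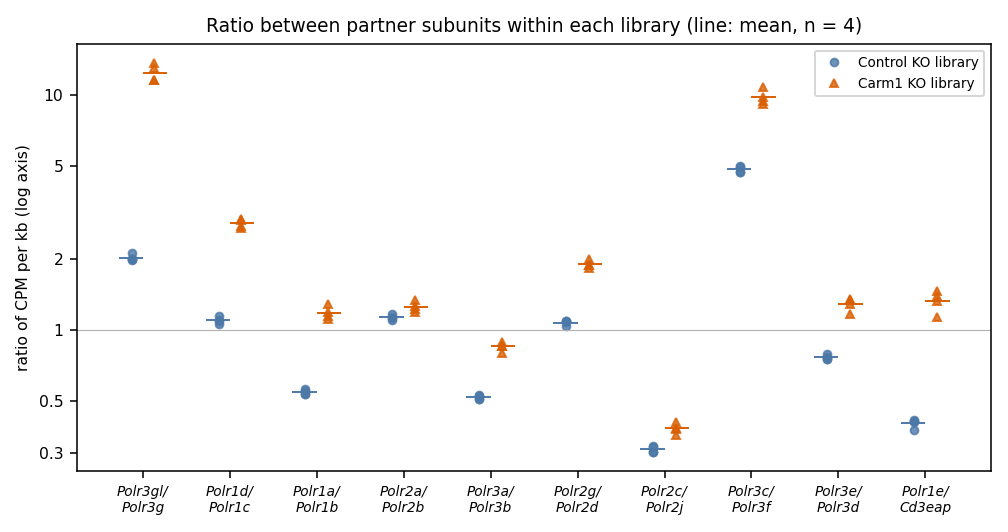
Ratio of CPM per kilobase between partner subunits in each library (log axis), with circles for Control KO, triangles for Carm1 KO and lines for the means. The ratio of Polr3gl to Polr3g is 2.03 in the Control KO and 12.4 in the Carm1 KO libraries, and that of Polr2a to Polr2b 1.14 and 1.25.

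The factors that work with the polymerases were also mostly lower. Over 7 lists of 107 genes 106 were tested, and their median log2 fold change was -0.36. Of these, 76 fell (71.7%, against 43.2% of all tested genes) and 19 rose (17.9%, against 44.5%). These totals include 7 genes of mitochondrial transcription, which serve a separate enzyme. Among 8 Pol I initiation and termination factors 4 fell (50.0%) and 3 rose (37.5%), shares near the 43.2% and 44.5% of all tested genes. Rrn3, the factor that makes Pol I able to initiate, fell 1.90-fold, from 99.5 ± 1.20 to 52.3 ± 1.91 CPM, and Ubtf, which coats active ribosomal genes, fell 1.84-fold, from 298 ± 3.91 to 162 ± 2.46 CPM. Genes of the promoter selectivity factor went the other way, with Taf1d rising 1.77-fold, Taf1c 1.47-fold and Taf1b 1.35-fold, although Taf1a of the same complex fell 1.69-fold. The list's extreme, Cavin1, was below 1 CPM in every library.

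Among 16 Pol III initiation factors and Maf1, 10 fell (62.5%, against 43.2% of all tested genes), 2 rose (12.5%, against 44.5%) and 4 did not pass. With upper-quartile factors 6 were called lower and 6 higher, where 61.0% of all called genes were higher. Bdp1, a TFIIIB component, fell 1.78-fold, from 78.4 ± 3.70 to 44.1 ± 2.92 CPM. Its TFIIIB partners Brf1 and Brf2, at 50.1 ± 2.62 and 52.3 ± 0.896 CPM and at 15.1 ± 0.785 and 15.4 ± 0.576 CPM, and Gtf3c1, the largest TFIIIC subunit, at 95.3 ± 1.15 and 96.4 ± 2.19 CPM, did not pass. Each of these had a log2 fold change of 0.06 or less, and all were called higher with upper-quartile factors. Gtf3a, the factor of the small ribosomal RNA gene, was at 49.96 ± 1.19 and 43.6 ± 1.10 CPM, a fall in the edgeR fit (log2 fold change -0.20 ± 0.031) that turned to 0.02 with upper-quartile factors. Maf1, the repressor of Pol III, rose 1.22-fold, from 126 ± 2.35 to 153 ± 4.83 CPM, without overlap of the groups, and Snapc3, of the complex for small nuclear RNA promoters, rose 1.22-fold.

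Among 31 tested general transcription factors of Pol II, 26 fell (83.9%, against 43.2% of all tested genes) and 4 rose (12.9%, against 44.5%). Their median log2 fold change was -0.49. With upper-quartile factors 18 were called lower and 7 higher, where 61.0% of all called genes were higher. Gtf2f1, a TFIIF subunit, fell 2.57-fold, from 139.8 ± 1.92 to 54.3 ± 1.70 CPM, and Cdk7, the kinase of TFIIH, fell 1.49-fold. Mnat1, an assembly factor of that kinase, rose 1.95-fold, from 27.6 ± 0.361 to 53.7 ± 1.09 CPM, and Gtf2a2, of TFIIA, rose 1.58-fold. Tbp, the TATA-binding protein used by all of the polymerases, was at 41.1 ± 0.374 and 35.8 ± 0.943 CPM and Gtf2b at 52.3 ± 1.33 and 43.3 ± 1.84 CPM. Both were called lower, at log2 fold changes of -0.20 ± 0.032 and -0.27 ± 0.032, and with upper-quartile factors these were 0.01 and -0.06 and did not pass.

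Of 23 tested pausing and elongation factors 19 fell (82.6%, against 43.2% of all tested genes) and 2 rose (8.7%, against 44.5%). With upper-quartile factors 14 were called lower and 4 higher, where 61.0% of all called genes were higher. Hexim1, which holds the elongation kinase inactive, fell 1.52-fold. Supt5 and Cdk9, central elongation factors, were called lower by only 1.16-fold and 1.15-fold, and with upper-quartile factors they were at log2 fold changes of 0.004 and 0.02. The risers were Supt4a, the partner of Supt5, from 80.6 ± 2.07 to 213 ± 10.4 CPM (a pseudogene copy, Supt4b, can share its reads), and Ell2, an elongation factor, from 2.75 ± 0.223 to 7.38 ± 0.321 CPM. Of the 11 kinases and phosphatases of the Pol II C-terminal domain 5 fell and 5 rose, 45.5% each. This is near the 43.2% and 44.5% of all tested genes. With upper-quartile factors 3 fell and 7 rose, where 61.0% of all called genes were higher. The largest rise was that of Rpap2, a phosphatase of the domain, from 18.8 ± 0.542 to 42.4 ± 1.35 CPM. Ctdp1, a phosphatase, fell 1.47-fold, and Cdk12, a kinase, was called lower (log2 fold change -0.15 ± 0.028) but was at 0.07 and called higher with upper-quartile factors.

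Of 10 assembly and import factors 8 fell and 1 rose, where 43.2% of all tested genes fell and 44.5% rose. The median log2 fold change of these factors was -0.77. Gpn1, a GTPase for nuclear import of polymerase, fell 2.66-fold, from 44.97 ± 1.92 to 16.9 ± 0.754 CPM. Rpap3, of the chaperone complex that assembles the enzymes, fell 2.31-fold and Rpap1 1.29-fold, while Uri1, a prefoldin-like protein of that complex, rose 1.19-fold. In mitochondria, where a single-subunit enzyme of other descent transcribes, 4 of 7 genes fell (57.1%) and 2 rose (28.6%), which for so few genes is near the 43.2% and 44.5% of all tested genes. The polymerase Polrmt fell 1.5-fold, from 46.8 ± 1.47 to 31.2 ± 0.713 CPM, and Tfam, which packages mitochondrial DNA, fell 1.32-fold. The termination-factor family genes Mterf1a and Mterf4 rose 1.67-fold and 1.39-fold, where Mterf1a is uncertain because a near-identical copy, Mterf1b, can share its reads.

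**Figure D5:**
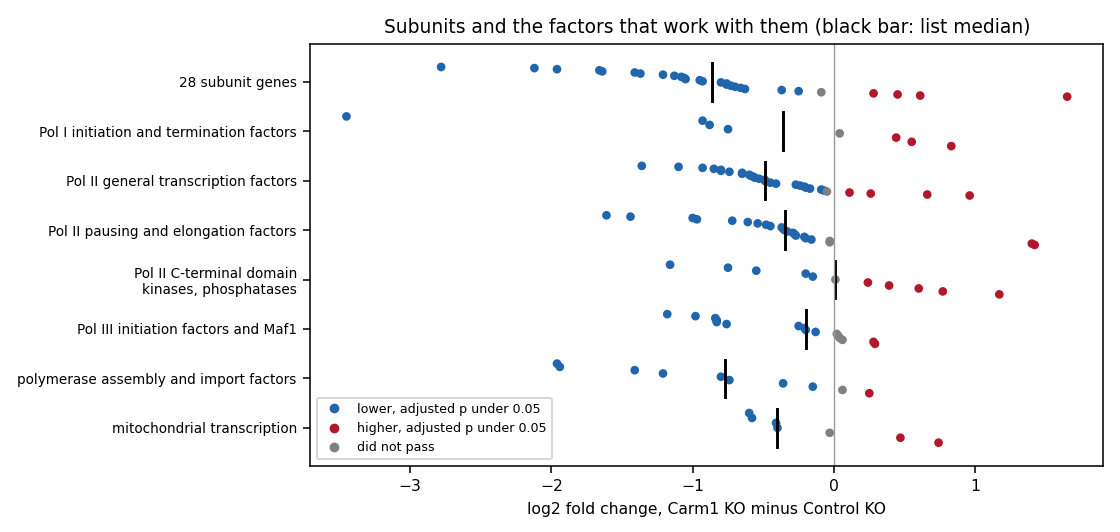
Log2 fold change (Carm1 KO minus Control KO) of the 28 subunit genes and of the tested genes of 7 factor lists, with 1 point per gene, colours for the call and a black bar for each list's median. The subunit genes have a median of -0.86, the assembly factors -0.77 and the C-terminal domain kinases and phosphatases 0.01.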

How the data were processed

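Polyadenylated RNA of 4 Control KO and 4 Carm1 KO libraries was sequenced as paired 150 bp reads. Each deposited file lists 1 library's whole-number counts by Ensembl gene, with exon positions and lengths. The authors made the counts with RSEM, per the labels' protocols, on mm10, as the submitters' processing notes give it. Not given in the sources used here are versions, aligner, annotation release, strand setting and how RSEM, which gives expected counts, led to whole numbers. Groups came from the source names and replicate numbers from the titles. Symbols came from GENCODE M21 (48970 of 49315 identifiers matched), and identifiers without one held at most 0.0535% of a library's counts.

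Counts were filtered with filterByExpr, scaled with TMM and tested with robust quasi-likelihood F tests in edgeR 4.0.16 (R 4.3.3, two-sided), with Benjamini-Hochberg adjustment over 14970 genes. Calls needed an adjusted p under 0.05. Standard errors are the log2 fold change divided by the root of its F. The procedure was tested on simulated data in which few genes were changed. That simulation cannot show how scaling and calls behave where 87.7% of tested genes are called, as here. A level of 3 counts corresponds to 0.0724 to 0.0799 CPM, and counting limits cover counting error only. Alternatives were RLE and upper-quartile factors, library totals, no filter, a filter of 5 CPM or more in 4 or more libraries, limma-voom (limma 3.58.1), DESeq2 1.42.0, a block for the replicate number, leaving out mitochondrially encoded genes, and leaving out each library in turn. The text names the subunit genes, factors set by a rule regardless of result, and members that moved against the majority of their list. Members, lists and rules were chosen with earlier results of these data known, and Taf1a, Cavin1, Rpap2 and the promoters shown were picked after their values were seen. No set test was made. The values of 1 subunit gene, which stays in the counts and medians, are not reported here.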

Additional observations from a re-analysis of the deposited data

Results flagged for a closer look

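In 132 groups of 4 libraries (28 subunit genes, 38 other named genes, both arms), the gap of the highest or lowest library to its nearest neighbour was set against the group's range with Dixon's limit. It was passed in 3 groups, none of them of a subunit gene, and chance passes about 1 in 20. Bdp1 in Carm1 KO replicate 1 was at 39.8 CPM, while the others were between 45.4 and 45.8 CPM. Gtf2b in Carm1 KO replicate 4 was at 46.1 CPM, while the others were between 42.2 and 42.6 CPM. Supt4a in Carm1 KO replicate 1 was at 228 CPM, while the others were between 206 and 209 CPM.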

How the results depend on the processing

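Of the log2 fold changes of the 28 subunit genes under 17 alternatives, 467 kept their direction and their side of the threshold. The exceptions were Polr2g, no longer called at -0.03 under upper-quartile factors (adjusted p = 0.34), and Polr2i, which turned positive with upper-quartile factors (0.12), library totals (0.07) and the filter of at least 5 CPM (0.002), and was called lower with RLE factors (-0.11), with no filter (-0.12), with mitochondrially encoded genes left out (-0.10) and without Control KO replicate 1 (-0.13) or Carm1 KO replicate 1 (-0.14). The median log2 fold changes with upper-quartile factors, library totals and the 5 CPM filter were -0.65, -0.70 and -0.77 for all 28 genes, -1.45, -1.50 and -1.57 for Pol I only (-1.69 with no filter), -0.49, -0.55 and -0.61 for Pol II only, -0.63, -0.68 and -0.75 for Pol III only and -1.0, -1.05 and -1.12 for the subunits shared by Pol I, II and III; the median of all tested genes was 0.23, 0.18 and 0.003, the last over fewer genes, and the median shift of genes was 0.22, 0.16 and 0.09. Without single libraries these medians were -0.88 to -0.85 for all 28, -1.69 to -1.66 for Pol I only, -0.73 to -0.69 for Pol II only, -0.87 to -0.82 for Pol III only and -1.27 to -1.20 for the shared subunits. Factor genes called higher numbered 33 with upper-quartile factors and 31 with library totals, against 19. In order of upper-quartile factors, totals and 5 CPM filter where moved by over 1.5 times, Pol III factors called higher were 6, 6 and 6 against 2, assembly factors called higher 2, 2 and 2 against 1 (also 2 without Carm1 KO replicate 2), C-terminal domain enzymes called lower 3, 3 and 3 against 5, and subunits under other symbols called higher 2, 2 and 2 against 0 (Znrd1 and Crcp). Elongation factors called higher were 4 and 4 with the first pair of settings against 2, and with upper-quartile factors alone general factors called higher were 7 against 4 and Pol III factors called lower 6 against 10. Log2 fold changes that turned were Cdk12 0.07, Cdk9 0.02, Gtf3a 0.02, Supt5 0.004 and Tbp 0.01 with upper-quartile factors, Cdk12 0.01 with library totals, Crcp -0.002 and Gtf3c1 -0.01 with no filter, Brf2 -0.01 without Control KO replicate 4 (up to 0.05 without other single libraries), and Gtf3c1 -0.001 and -0.0007 without Control KO replicate 1 and Carm1 KO replicate 3 (up to 0.03 without others). Brf1, not passed at 0.06, was called higher without Control KO replicate 2 (0.08). Scaling moves all genes together by construction; the cause of the other turns was not tested. The highest subunit level was 34.3 times the lowest in Control KO and 27.2 times in Carm1 KO libraries per kilobase, and 15.3 and 22.3 times without length scaling.

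With the replicate number as a block, 4 subunit genes were called higher and 23 lower, 18 and 76 factor genes, and 6611 and 6420 of all genes, and the medians were -1.66, -0.71, -0.84, -1.21 and -0.86 in the order Pol I only, Pol II only, Pol III only, shared, all 28. The deviations of same-numbered libraries from their group means correlated at -0.0848 to -0.0509, and none correlated best with its own number. Deviations from a group mean are tied to each other, so these few values cannot show whether same-numbered libraries share more than a number. The lowest subunit gene count in a library was 352, while genes such as Cavin1, under 1 CPM, are less precise.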

Other observations

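Polr3gl and Polr3c, which both rose, lie 117.3 kb apart on chromosome 3 (mm10). This stretch was looked at after the values were seen. Protein-coding genes between them moved both ways. Pias3, a SUMO ligase that binds STAT proteins, was at 6.51 ± 0.60 and 23.1 ± 1.20 CPM in the Control KO and Carm1 KO libraries (log2 fold change 1.83 ± 0.058). Lix1l was at 0.787 ± 0.120 and 5.08 ± 0.340 CPM, Itga10, an integrin chain, at 1.31 ± 0.263 and 3.89 ± 0.154 CPM, and Nudt17 at 0.260 ± 0.0539 and 0.636 ± 0.106 CPM. Rbm8a, a core protein of the exon junction complex, fell, at 149 ± 2.57 and 70.2 ± 4.30 CPM (log2 fold change -1.08 ± 0.031). Gm16253 overlaps the exons of Polr3gl by 57 bases on the other strand, and was at 0.147 ± 0.0186 and 1.21 ± 0.115 CPM; the kit does not mark strand.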
